A study of Mus musculus with 4 samples.

Results

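The genes of glycolysis, glycogen turnover and the phosphagen system were followed in the tibialis anterior (TA), a fast-twitch shin muscle, and in the heart of mice with and without MG56, also called Hhatl, which sits in the membrane of the endoplasmic and sarcoplasmic reticulum. The set holds 38 genes, chosen by name for their place in energy metabolism: glycolytic enzymes, glycogen enzymes, carriers of glucose and lactate, and enzymes that handle creatine phosphate and adenine nucleotides. Of these, 34 had at least 1 probe set annotated to that symbol alone, 71 probe sets in all, among 18193 genes on the Affymetrix mouse array. Gpi1, Pfkfb1, Gapdh and Eno1 had none and were not analysed here. MG56-knockout and wild-type mice, all C57BL/6J, were taken at postnatal day 9, and the labels give no treatment. The series' design text says that RNA of 3 knockout animals was mixed, which is read here as mixed within each tissue. The labels give neither the number of wild-type animals in a pool nor the way the allele was made. Each of the 4 groups (wild-type TA, knockout TA, wild-type heart, knockout heart) is 1 array of pooled RNA, so no value below has a replicate error and no p-value is given.

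Glycolysis splits glucose to pyruvate in the cytosol and is the main quick source of ATP in fast-twitch fibres, which also burn their own glycogen. The heart relies more on oxidation of fatty acids and lactate, and takes lactate up as fuel. Many steps are carried by isoforms that differ between tissues, such as the muscle and brain forms of glycogen phosphorylase or the A and B subunits of lactate dehydrogenase. Creatine kinase and adenylate kinase buffer ATP next to the contractile apparatus and the calcium pumps.

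The deposited values were linear MAS5 signal intensities. The median of all signals, 101.3, was used as a floor. A gene counted as measured where any array of the comparison reached that floor, lower signals were raised to it, and a fold that rests on a raised signal is written "at least". The probe set with the highest mean signal stood for its gene. Signals of different probe sets were not set against each other, because probe sets differ in how strongly they bind. Values are log2 ratios of knockout over wild type, or of TA over heart, and 1.5-fold in the knockout comparisons and 2-fold between tissues were the sizes counted.

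The tissues carried their defining markers. All 16 listed skeletal muscle genes reached the floor in both TA arrays, against 5 in wild-type heart and 6 in knockout heart, where Tnnt3, Actn3 and Myh4 were between 7.4 and 35.1. All 13 heart muscle genes reached it in both heart arrays, against 5 in wild-type and 6 in knockout TA. In TA Nppa and Tnni3 were between 32.3 and 95.4, while Myl2 reached 12327 and Sln, which was 2.87-fold higher in wild-type TA than in heart, 13520. Hhatl was lower in the knockout pools, with signals of 5491 and 1078 in wild-type and knockout TA and 2110 and 880 in heart (log2 ratios of −2.35 and −1.26). The pools also differed in transcripts of the sex chromosomes: the Y-linked Uty had signals of 158 and 426 in wild-type and knockout TA and 210 and 480 in heart, and Xist had 12996 and 9034 in TA and 16847 and 12990 in heart. The labels do not give the sex of the animals, and its part in the ratios below was not tested.

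In the knockout pools few metabolic genes were far from their wild-type signal. In TA, 33 members were measured: 0 reached 1.5-fold on the higher side, where 4.19% of all measured genes did, and 1 on the lower side, where 4.44% did. That member was Pfkfb3, a dim gene for an enzyme that makes fructose 2,6-bisphosphate, the strongest activator of phosphofructokinase. In heart, 0 of 30 members were 1.5-fold higher (2.67% of all measured genes) and 0 were lower (4.18%). The ratio was smaller than 1.2-fold for 23 members in TA and 18 in heart, and for 14 in both tissues, where it was for 63.8%, 67.6% and 47.1% of all measured genes. The members' shares lie under or close to the background, also that of bright genes (mean signal at least 8 times the floor), of which 3.35% were higher and 2.50% lower in TA and 1.44% and 1.64% in heart.

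**Figure D1:**
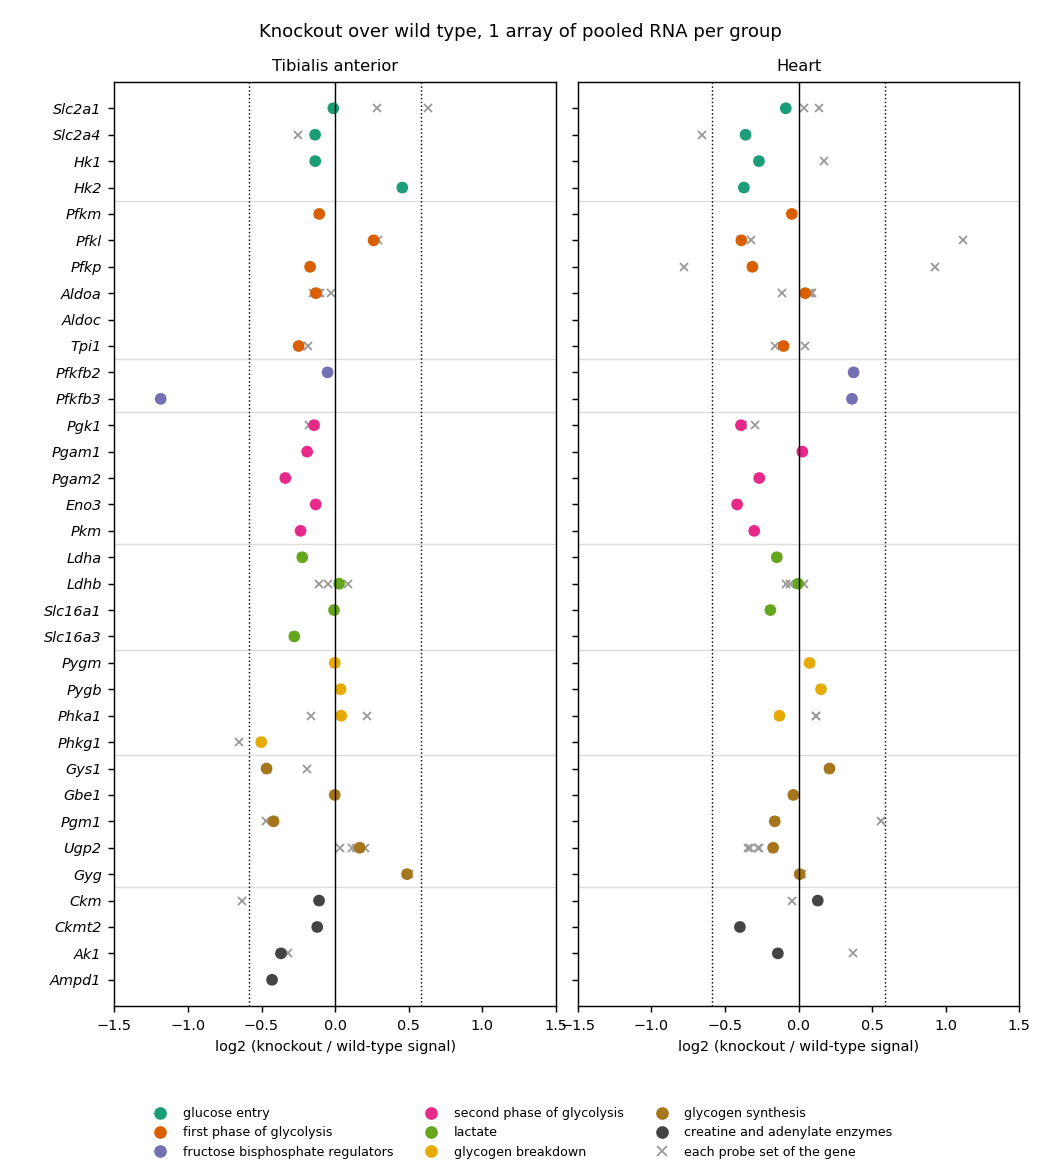
Log2 ratio of knockout over wild-type signal (horizontal axis) for each measured gene in TA (left) and heart (right); coloured points are the probe set that stands for the gene, crosses its other probe sets at or above the floor, colours the metabolic step, and dotted lines 1.5-fold. In TA only Pfkfb3, at −1.19, lies outside the lines among the coloured points, and in heart none does.

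The small ratios leaned to one side. In TA 26 of 33 members were below 0, with a median log2 ratio of −0.13, where the median of all 11528 measured genes was −0.0082. In heart 21 of 30 were below 0, also with a median of −0.13, against −0.0016 over 11452 genes. The members are bright, and very bright genes leaned the same way. Among genes other than the members with a mean signal at least 64 times the floor, 68.1% of 664 were below 0 in TA (median −0.08) and 64.3% of 655 in heart (median −0.06). The members past that brightness had medians of −0.13 (12 of 15 below 0) and −0.14 (11 of 14). With quantile normalization over the 4 arrays the median of the members in TA was −0.07, and with the median over a gene's probe sets the median in heart was −0.04, with 17 of 30 below 0. Skeletal muscle markers leaned likewise in TA: their summed signal was 521866 in wild type and 462543 in knockout, 14 of the 16 were below 0 and their median was −0.14. In a whole muscle, fewer fibres and less RNA per fibre cannot be told apart. How much of the members' shift goes with these markers was not tested.

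**Figure D2:**
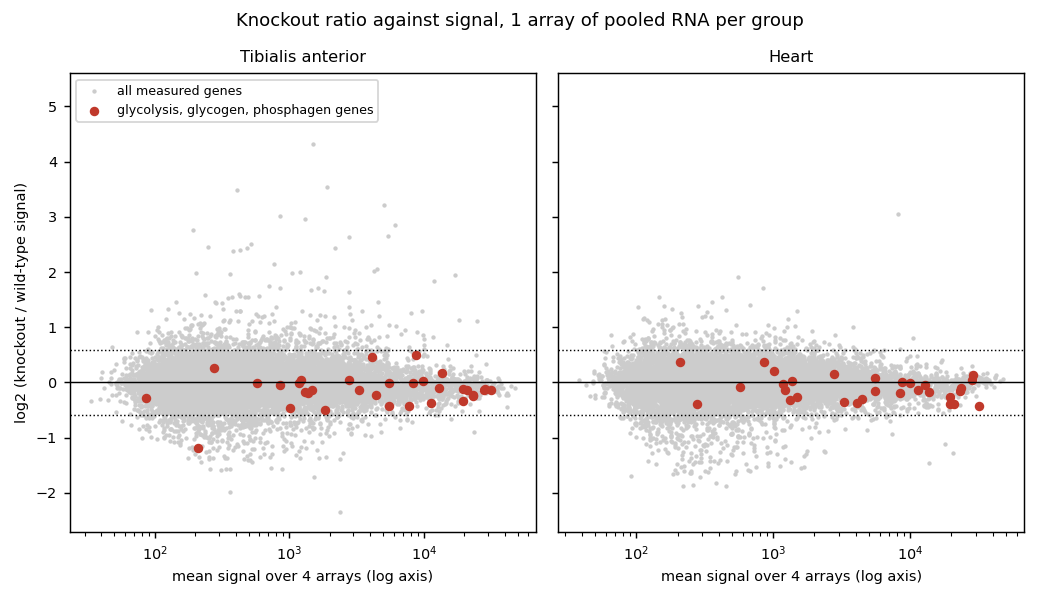
Log2 ratio of knockout over wild-type signal (vertical axis) against the mean signal over the 4 arrays (horizontal log axis) in TA (left) and heart (right); grey points are all measured genes, red points the members, and dotted lines 1.5-fold. The red points sit at the bright end and mostly just under 0, with medians of −0.13 in both tissues, and Pfkfb3 stands alone below the lower line in TA.

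**Figure D3:**
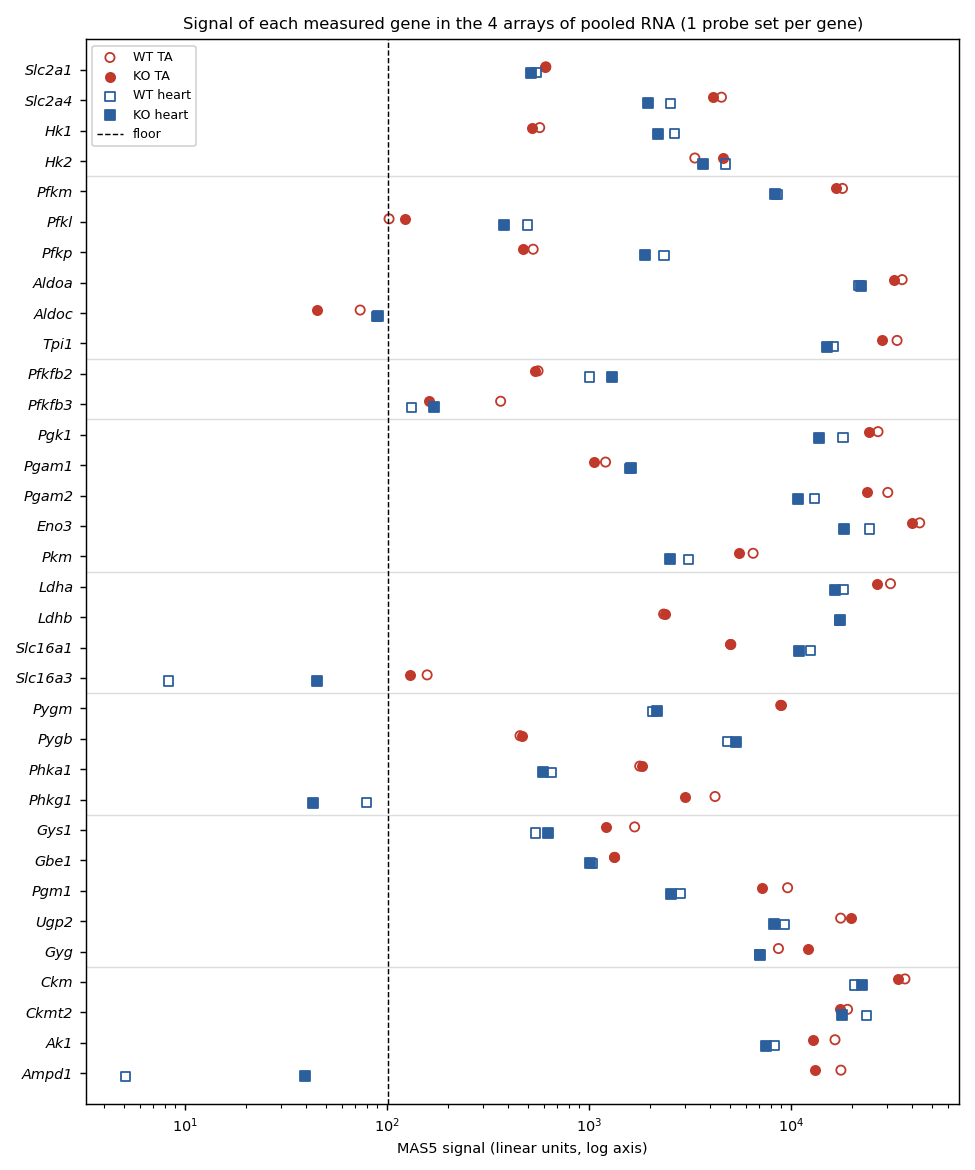
Signal of each of the 34 genes with a probe set (horizontal log axis, MAS5 linear units) in the 4 arrays; circles are TA, squares heart, open symbols wild type and filled symbols knockout, and the dashed line is the floor of 101.3. Open and filled symbols of a tissue mostly touch while circles and squares stand apart, most widely for Ampd1, Phkg1 and Slc16a3, whose heart signals are under the floor, and for Pygb and Ldhb.

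Glucose enters the fibre through Slc2a4 (GLUT4, the insulin-responsive carrier) and Slc2a1 (GLUT1, the basal carrier). Slc2a4 had signals of 4541 in wild-type TA, 4133 in knockout TA, 2530 in wild-type heart and 1971 in knockout heart. Slc2a1 had 613, 608, 549 and 517, and was nearer to 0 than Slc2a4 in every comparison. The knockout ratio of Slc2a4 was −0.14 in TA and −0.36 in heart. Its second probe set read lower in heart, 1000 in wild type and 635 in knockout, a ratio of −0.66 or 1.58-fold, so its size there depends on the probe set. A dim probe set of Slc2a1 had 152 and 235 in TA, 1.55-fold higher in the knockout, beside −0.01 on the bright one. The remaining probe set of Slc2a1 had 358 and 437 in TA, 1.22-fold higher.

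Hexokinase traps glucose as glucose 6-phosphate. Hk2, the insulin-regulated isoform of muscle, had signals of 3351 in wild-type TA and 4600 in knockout TA, 1.37-fold higher in the knockout. In heart it ran the other way, with 4764 in wild type and 3683 in knockout, 1.29-fold lower. The log2 ratios of the tissues, 0.46 and −0.37, lay 0.83 apart, which is 1.78-fold. Hk2 was also on the heart side in wild type (1.42-fold higher in heart) and on the TA side in knockout (log2 TA over heart of 0.32). It has 1 probe set. Hk1, the isoform of most tissues, had signals of 572, 521, 2647 and 2197 in wild-type TA, knockout TA, wild-type heart and knockout heart. Its knockout ratios were −0.13 and −0.27, and in wild type it was 4.63-fold higher in heart.

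Phosphofructokinase commits sugar to glycolysis, and its subunits come from 3 genes. Pfkm, the muscle subunit, had signals of 18040 in wild-type TA, 16743 in knockout TA, 8586 in wild-type heart and 8319 in knockout heart. Pfkl, the liver subunit, had 103, 123, 499 and 381, and Pfkp, the platelet subunit, 531, 472, 2360 and 1899. Pfkm thus lay on the TA side, 2.10-fold in wild type, and the other 2 subunits on the heart side, 4.86-fold for Pfkl and 4.45-fold for Pfkp. The knockout ratios were −0.11 and −0.05 for Pfkm and −0.17 and −0.31 for Pfkp in TA and heart. Pfkl read 0.26 in TA and −0.39 in heart, but its TA signals are at the floor and its probe sets ran from −0.39 to 1.12 in heart. Those of Pfkp ran from −0.78 to 0.93 there, so the knockout ratios of both genes in heart have no settled direction.

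The fructose 2,6-bisphosphate enzymes gave the largest knockout ratio of the set. Pfkfb3, the inducible form, had signals of 366 in wild-type TA and 161 in knockout TA, 2.27-fold lower, the 53rd lowest of 11528 measured genes. In heart it had 133 and 171, 1.29-fold higher in the knockout. The ratios of the tissues, −1.19 and 0.36, lay 1.55 apart on the log2 scale, or 2.93-fold, the widest gap among the members. It is among the dimmest measured members, its second probe set was under the floor on every array, and the ratio rests on 1 probe set. Pfkfb2, the form best known from heart, had 561 and 542 in TA and 1010 and 1309 in heart, with knockout ratios of −0.05 and 0.37. In wild type it was 1.80-fold higher in heart.

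Aldolase and triose phosphate isomerase make and interconvert the trioses. Aldoa, the muscle aldolase, had signals of 35603, 32523, 21634 and 22330 in wild-type TA, knockout TA, wild-type heart and knockout heart, and Tpi1 had 33594, 28289, 16201 and 15097. Their knockout ratios were −0.13 and −0.25 in TA and 0.05 and −0.10 in heart. All 5 probe sets of Aldoa are of a kind that can bind related transcripts. Aldoc, the brain aldolase, had signals between 45.3 and 90.7, under the floor on all 4 arrays, and is the 1 member with a probe set that was not measured.

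The ATP-yielding second phase runs from Pgk1 (phosphoglycerate kinase) through Pgam2 and Pgam1 (the muscle and brain phosphoglycerate mutases) and Eno3 (muscle enolase) to Pkm (pyruvate kinase). All 5 were below 0 in knockout TA, with a median of −0.19, and 4 of 5 in knockout heart, with a median of −0.30. None reached 1.5-fold. Over the whole set, 26 of 33 members were below 0 in TA and 21 of 30 in heart. Eno3 had signals of 43491 and 39694 in wild-type and knockout TA and 24632 and 18446 in heart. It stood 9th among all probe sets of both TA arrays by signal, and had the lowest knockout ratio of the set in heart, −0.42 or 1.34-fold. Pgk1 had 27043, 24486, 18128 and 13823 in the same order, with ratios of −0.14 and −0.39, and its 3 probe sets ran from −0.39 to −0.30 in heart. Pgam2 had 30225, 23909, 13136 and 10918, Pkm 6511, 5533, 3105 and 2520, and Pgam1 1211, 1062, 1586 and 1615. Pgam2 was thus the lowest of the 5 in TA, at −0.34, while Pgam1 in heart, at 0.03, was the exception to the direction.

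Some skeletal muscle markers were also lower in the knockout heart pool. The summed signal of the 16 markers in heart was 6900 in wild type and 4078 in knockout, and the median ratio of the 6 that were measured there was −0.50. Casq1 had 566 and 207, Myl1 2568 and 1062, Acta1 2714 and 1849, and Mybpc2 548 and 405. Tnni2, at 125 and 132, and Myh2, at 77.1 and 102, did not read lower. Myh4, Tnnt3 and Actn3 were under the floor in both heart arrays. Most members higher in TA than in heart in wild type were below 0 in knockout heart, among them Eno3, Pgk1, Slc2a4, Pgam2 and Pkm. Most members higher in heart were below 0 there too, as were 21 of all 30 measured. Of the members higher in TA, those above 0 were Pfkfb3 (0.36), Gys1 (0.21), Ckm (0.13), Pygm (0.07), Aldoa (0.05) and Gyg (0.0077). Ckmt2 (−0.40) and Hk2 (−0.37), higher in heart in wild type, were about as low as Eno3 and Pgk1. The part of these markers in the members' ratios was not tested. Myh7, the slow and fetal myosin of mouse heart, went the other way, with 886 in wild-type and 7354 in knockout heart.

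Lactate dehydrogenase and the lactate carriers close the pathway. Ldha, the subunit that prevails in fast muscle, had signals of 31183, 26722, 18288 and 16504 in wild-type TA, knockout TA, wild-type heart and knockout heart. Ldhb, the heart subunit, had 2349, 2394, 17492 and 17461, with knockout ratios of 0.03 and −0.0025, among the steadiest of the set. Slc16a1 (MCT1, which serves lactate uptake) had 5051, 5026, 12487 and 10937. Slc16a3 (MCT4, which exports lactate from glycolytic fibres) was dim, with 159 and 131 in TA, and was under the floor in heart at 8.3 and 45.2. No knockout ratio of the 4 genes went beyond −0.28, that of Slc16a3 in TA.

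Glycogen breakdown differed between its enzymes in knockout TA. Pygm, the muscle phosphorylase that releases glucose units from glycogen, had signals of 8920 in wild-type and 8905 in knockout TA, a ratio of −0.0025, and 2063 and 2173 in heart. Phkg1, the catalytic subunit of the kinase that switches phosphorylase on in muscle, had 4220 and 2980 in TA, 1.42-fold lower in the knockout. Its second probe set read 3817 and 2424, 1.57-fold lower, so Phkg1 lay on either side of 1.5-fold depending on the probe set. In heart Phkg1 was under the floor, at 79.7 and 43.3. Phka1, a regulatory subunit of the same kinase in muscle, had 1788, 1841, 653 and 597 in wild-type TA, knockout TA, wild-type heart and knockout heart. Pygb, the brain phosphorylase, had 457, 469, 4843 and 5383. The knockout ratios in TA and heart were 0.04 and −0.13 for Phka1 and 0.04 and 0.15 for Pygb. The phosphorylases and Phka1 thus stayed close to wild type on the probe sets that stand for them. The 3 probe sets of Phka1 ran from −0.17 to 0.22 in TA and from −0.13 to 0.12 in heart.

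Glycogen synthesis held members on both sides. Gyg, glycogenin, the primer on which a glycogen particle is built, had signals of 8694 in wild-type and 12202 in knockout TA, 1.40-fold higher, and 7005 and 7043 in heart. Its second probe set gave 0.50 in TA, beside 0.49. Gys1, the muscle glycogen synthase, had 1687 and 1222 in TA, 1.38-fold lower, and 543 and 629 in heart, 1.16-fold higher. The 2 log2 ratios of Gys1 lay 0.68 apart, though its second probe set read −0.19 in TA in place of −0.47. Pgm1, which links glucose 6-phosphate to glucose 1-phosphate, had 9649 and 7220 in TA, with a ratio of −0.42 and of −0.47 on its second probe set, and 2844 and 2543 in heart. In heart that second, dimmer probe set had 202 and 299, 1.48-fold higher in the knockout, beside −0.16 on the bright one. The direction of Pgm1 in heart thus depended on the probe set. Ugp2, which makes UDP-glucose, had 17666, 19838, 9276 and 8230, and its 5 probe sets ran from 0.03 to 0.20 in TA and from −0.34 to −0.17 in heart. Gbe1, the branching enzyme, had 1343, 1341, 1040 and 1015 and was the flattest of the group. Gyg was the highest of the 33 measured members in knockout TA and Hk2 the next.

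The ATP-buffering enzymes were all below 0 in knockout TA. So were 68.1% of the genes outside the set with a mean signal at least 64 times the floor, with a median of −0.08. Ampd1, the muscle AMP deaminase, had signals of 17716 in wild-type and 13164 in knockout TA, 1.35-fold lower, and was under the floor in heart at 5.1 and 39.6. Ak1, the cytosolic adenylate kinase, had 16561 and 12831 in TA, 1.29-fold lower, and 8327 and 7555 in heart. A dim second probe set of Ak1 had 96.4, under the floor, and 131 in heart, at least 1.29-fold higher, beside −0.14 on the bright one. Ckm, the cytosolic muscle creatine kinase, had 36763, 34090, 20635 and 22594 in wild-type TA, knockout TA, wild-type heart and knockout heart. Its second, dimmer probe set had 1586 and 1020 in TA, 1.55-fold lower in the knockout, beside −0.11 on the bright one. Ckmt2, the creatine kinase of muscle mitochondria, had 19106, 17566, 23648 and 17942, with a ratio of −0.12 in TA and of −0.40 in heart, 1.32-fold lower. In heart Ckm read 0.13 on its bright probe set and −0.04 on the dimmer one, which had 275 and 267 there. Whether the cytosolic and the mitochondrial creatine kinase genes lay on opposite sides of 0 in heart thus depended on the probe set.

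Across the 30 members measured in both tissues the knockout ratios of TA and heart were set side by side. The signs were the same for 18 of 30, with 16 below 0 in both tissues and 2 above 0 in both, and for 59.8% of all genes measured in both. Pearson's r across genes was −0.32 over the 30 and 0.0068 over the 27 bright ones, where it was 0.31 over all measured genes. Spearman's rank correlation over the same sets was −0.0033, 0.16 and 0.27, so the members showed no inverse relation by rank. These points share their arrays and are not independent, and the 2 ratios of a gene share no array. At least 1.5-fold between the tissues' ratios was reached by 4 of 30 members, where 11.5% of all measured genes and 6.52% of the bright ones did: Hk2 and Pfkl higher in TA than in heart, Gys1 and Pfkfb3 lower. With 1 array a group this difference could not be tested.

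Between TA and heart these genes stood far apart. In wild type, 11 of 33 members were at least 2-fold higher in TA, where 7.56% of all measured genes and 8.14% of the bright ones were, and 6 were at least 2-fold higher in heart, where 7.80% and 7.76% were. The median log2 ratio of the members was 0.77, against −0.07 over 11872 genes. On the TA side stood Ampd1 (at least 175-fold), Phkg1 (at least 41.7-fold), Pygm (4.32-fold), Pgm1 (3.39-fold), Gys1 (3.11-fold), Pfkfb3 (2.76-fold), Phka1 (2.74-fold), Pgam2 (2.30-fold), Pfkm and Pkm (both 2.10-fold) and Tpi1 (2.07-fold). On the heart side stood Pygb (10.6-fold), Ldhb (7.45-fold), Pfkl (4.86-fold), Hk1 (4.63-fold), Pfkp (4.45-fold) and Slc16a1 (2.47-fold). Slc16a3 was at least 1.56-fold higher in TA, a bound that does not place it on either side of 2-fold. The other 15 were less than 2-fold apart, from Ak1 (1.99-fold) and Ugp2 higher in TA to Pfkfb2 higher in heart. With a floor at the 75th percentile of all signals the log2 ratios were at least 3.16 for Phkg1 and at least 5.23 for Ampd1, and that of Pfkl, whose TA signal is at the floor, was −0.08.

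The tissue pattern was measured again, on separate arrays, in the knockout pools. Of the 17 members at least 2-fold apart in wild type, 16 lay on the same side in the knockout and 14 were again at least 2-fold apart. The share of all measured genes that repeated in this way was not counted, so these numbers do not set the members apart. Gys1 (0.96) and Tpi1 (0.91) fell just short of 2-fold, and Pfkfb3 was at −0.09, with 161 in knockout TA and 171 in knockout heart. Ampd1 was at least 129.9-fold and Phkg1 at least 29.4-fold higher in knockout TA, Pygb 11.5-fold higher in knockout heart. In all, 11 members were 2-fold higher in knockout TA (8.48% of all measured genes) and 7 in knockout heart (8.12%).

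**Figure D4:**
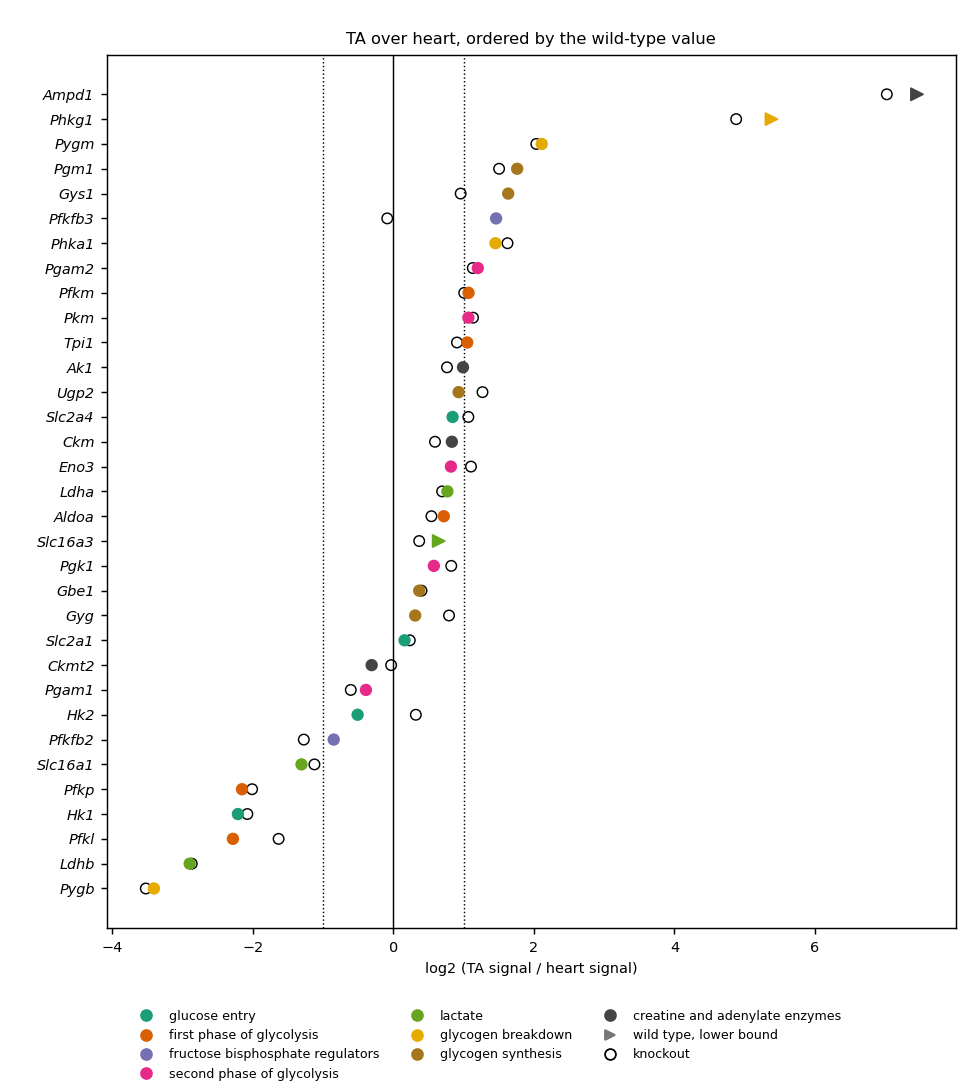
Log2 ratio of TA over heart signal (horizontal axis) for the 33 measured genes, ordered by the wild-type value; coloured points are wild type, triangles wild-type lower bounds, open circles knockout (for Ampd1, Phkg1 and Slc16a3 these are lower bounds too), and dotted lines 2-fold. Open and coloured points lie near each other except for Pfkfb3, Hk2 and, to a lesser degree, Gys1 and Pfkl.

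Isoforms of the same step differed in their TA-over-heart ratios, though not every pair lay on opposite sides. In wild type Hk2 (−0.51) and Hk1 (−2.21) were both higher in heart, and Slc2a4 (0.84) and Slc2a1 (0.16) both higher in TA. The measure here is the difference of their log2 TA-over-heart ratios, which does not need the levels of different probe sets to be comparable. For phosphorylase, Pygm minus Pygb was 5.52 in wild type and 5.56 in knockout, a shift of 45.8-fold and 47.04-fold between tissues. For lactate dehydrogenase, Ldha minus Ldhb was 3.67 and 3.56, or 12.7-fold and 11.8-fold. Most of that came from Ldhb: Ldha itself was 1.71-fold higher in wild-type TA, while Ldhb was 7.45-fold higher in heart, and the 4 probe sets of Ldhb ran from −3.12 to −2.90.

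Among the phosphofructokinase subunits, Pfkm minus Pfkp was 3.22 in wild type and 3.02 in knockout, and Pfkm minus Pfkl 3.35 and 2.64. The second of these depends on the floor and on the probe set, at 1.15 with the higher floor and 2.23 with the median over probe sets. For phosphoglycerate mutase, Pgam2 minus Pgam1 was 1.59 and 1.74, or 3.01-fold and 3.33-fold. Hk2 minus Hk1 was 1.70 in wild type and 2.40 in knockout, and 0.86 in wild type with the median over probe sets. The muscle member of each of these pairs lay further to the TA side in both genotypes.

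Among the carriers, Slc2a4 minus Slc2a1 was 0.68 in wild type and 0.83 in knockout. Slc16a3 minus Slc16a1 was at least 1.95 and at least 1.49, bounds because Slc16a3 was under the floor in heart. Ckm minus Ckmt2 was 1.14 in wild type and 0.62 in knockout, and Ckm minus Ckb, the brain creatine kinase gene, 1.92 and 1.49; with the median over probe sets these wild-type values were 1.99 and 2.77. Hk2 with Hk1 and Pfkm with Pfkl were the pairs whose wild-type and knockout values lay furthest apart, by the values above. Aldoa with Aldoc and Eno3 with Eno1 could not be read, for want of a measured partner.

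**Figure D5:**
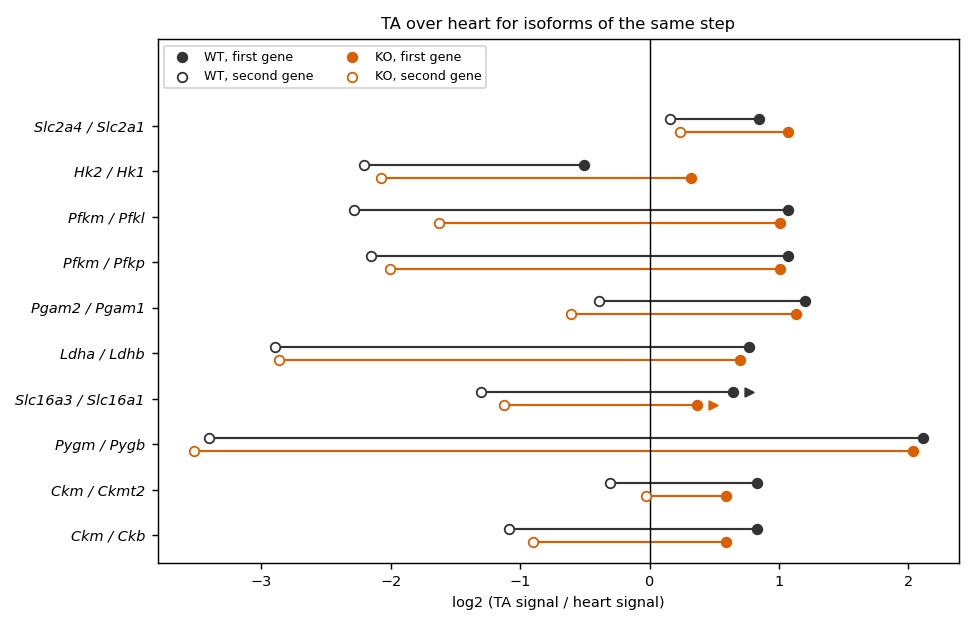
Log2 ratio of TA over heart signal (horizontal axis) for pairs of genes of the same step; filled points are the first gene of a pair, open points the second, black wild type, orange knockout, and triangles mark lower bounds. The line between 2 points is the difference given in the text, longest for Pygm and Pygb at 5.52 in wild type and 5.56 in knockout.

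The promoters of 6 members, chosen after their values were seen, are shown so that isoforms on opposite sides can be compared. The windows are the 250 bases before the annotated start, from RefSeq on build GRCm38.p6, written 5′ to 3′ on the gene's strand, and 36 of 38 members matched the table by symbol (all but Slc2a4 and Ampd1). Capitals mark CANNTG, the E-box, which the myogenic factors of the MyoD family bind among many others. It reads the same on both strands, and CAGCTG, the form they favour, is a case of it. Pygm (chr19:6384158-6384407, plus strand) and Pgam2 (chr11:5803797-5804046, minus strand) are muscle isoforms, Pygb (chr2:150786546-150786795, plus strand) and Pgam1 (chr19:41911621-41911870, plus strand) their brain counterparts, Phkg1 (chr5:129879089-129879338, minus strand) the kinase subunit on the TA side and Ldhb (chr6:142507958-142508207, minus strand) the heart subunit.
Pygm: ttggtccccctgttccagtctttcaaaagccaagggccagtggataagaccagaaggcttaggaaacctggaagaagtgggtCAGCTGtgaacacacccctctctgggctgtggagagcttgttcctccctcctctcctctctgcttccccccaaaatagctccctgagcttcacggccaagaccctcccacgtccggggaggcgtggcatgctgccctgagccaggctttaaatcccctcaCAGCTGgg
Pygb: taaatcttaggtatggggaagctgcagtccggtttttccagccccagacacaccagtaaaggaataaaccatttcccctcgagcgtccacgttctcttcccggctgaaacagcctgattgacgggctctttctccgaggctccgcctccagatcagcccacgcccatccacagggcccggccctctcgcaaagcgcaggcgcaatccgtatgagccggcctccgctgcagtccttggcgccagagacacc
Pgam2: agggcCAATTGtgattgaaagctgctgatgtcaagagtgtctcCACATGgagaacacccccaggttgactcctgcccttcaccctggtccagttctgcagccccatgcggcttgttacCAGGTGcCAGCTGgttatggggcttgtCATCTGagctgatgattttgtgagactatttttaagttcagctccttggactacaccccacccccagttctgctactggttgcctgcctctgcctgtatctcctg
Pgam1: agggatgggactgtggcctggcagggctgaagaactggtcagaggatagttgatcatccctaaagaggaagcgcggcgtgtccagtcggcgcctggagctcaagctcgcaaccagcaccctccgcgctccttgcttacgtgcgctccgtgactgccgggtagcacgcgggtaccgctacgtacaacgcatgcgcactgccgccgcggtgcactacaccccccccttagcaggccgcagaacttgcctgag
Phkg1: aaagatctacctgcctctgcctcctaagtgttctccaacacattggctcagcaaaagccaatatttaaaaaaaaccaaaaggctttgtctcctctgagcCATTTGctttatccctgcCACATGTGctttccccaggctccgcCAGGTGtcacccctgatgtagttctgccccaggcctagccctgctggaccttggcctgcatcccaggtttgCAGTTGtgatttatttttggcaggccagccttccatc
Ldhb: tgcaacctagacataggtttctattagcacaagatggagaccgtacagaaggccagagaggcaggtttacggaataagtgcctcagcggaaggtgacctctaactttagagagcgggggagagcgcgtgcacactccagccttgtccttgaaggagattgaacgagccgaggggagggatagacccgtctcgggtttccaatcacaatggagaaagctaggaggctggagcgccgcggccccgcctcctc
Pygm held 2 matches, both CAGCTG, Pgam2 held 5, of which 1 was CAGCTG, and Phkg1 held 5 with 0 of that form. Pygb, Pgam1 and Ldhb held 0 in this window. The split was not general: Pgm1, on the TA side, also held 0, and Pfkl, on the heart side, held 3.

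Over all genes in the table, 69.3% of 27025 had CANNTG in at least 1 such window and 14.7% had CAGCTG. Per window the shares were 66.2% and 13.0% of 32851. Of the 10 members with a promoter that were at least 2-fold higher in wild-type TA, 9 had CANNTG and 5 had CAGCTG (Gys1, Pgam2, Phka1, Pkm and Pygm). Of the 6 at least 2-fold higher in heart, 3 had CANNTG (Hk1, Pfkl and Slc16a1) and 0 had CAGCTG. Of the 14 known to be less than 2-fold apart, 11 had CANNTG and 5 had CAGCTG, among them Ckm, Ckmt2 and Ak1. Genes differ in their number of windows, so the shares per gene are not strictly comparable. Per window, CANNTG was in 12 of 15 of the members higher in TA and CAGCTG in 5. These counts were 4 and 0 of 7 for those higher in heart, and 19 and 6 of 23 for those less than 2-fold apart. A match is a run of letters and not a measured binding site.

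Other genes of the same pathways were read from a list of 60. In TA 45 were measured, 4 reached 1.5-fold on the higher side and 6 on the lower side (4.19% and 4.44% of all measured genes), and the median was −0.12. Gpd1 and Gpd2, the cytosolic and mitochondrial arms of the glycerol phosphate shuttle that carries electrons from glycolysis into mitochondria, were among the lower ones. Gpd1 had signals of 3335 in wild-type and 2099 in knockout TA, 1.59-fold lower, and Gpd2 had 4376 and 2662, 1.64-fold lower. In heart Gpd1 had 442 and 317 and Gpd2 494 and 470. Both arms of the shuttle were thus lower in knockout TA, and both were on the TA side in wild type, 7.54-fold and 8.85-fold.

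Pdk4 and Pdk3, kinases that hold back pyruvate dehydrogenase, were among the higher ones in knockout TA. Pdk4 had signals of 8970 in wild-type and 14336 in knockout TA, 1.60-fold higher, and 18301 and 18519 in heart. Pdk3 had 375 and 607 in TA, 1.62-fold higher, and 376 and 336 in heart. Tigar, a fructose bisphosphatase, had 303 and 516 in TA, 1.70-fold higher, and Ampd3, the AMP deaminase of red blood cells and other tissues, had 484 and 803, 1.66-fold higher. Ampd3 thus ran opposite to the muscle gene Ampd1 in TA, and it was on the heart side in wild type, at −1.86. Tigar and Pdk3 are dim and read 0.13 and 0.37 on the log2 scale with the higher floor, and Tigar 0.55 with the median over probe sets. Slc2a12, a further glucose carrier, had 733 and 441 in TA, 1.66-fold lower.

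In heart 47 listed genes were measured, 2 were 1.5-fold higher in the knockout and 1 was lower (2.67% and 4.18% of all measured genes), with a median of −0.02. Ppp1r3c, which directs protein phosphatase to glycogen, had signals of 5532 in wild-type and 8449 in knockout heart, 1.53-fold higher, and 9970 and 9628 in TA. The other higher gene, Epm2a, at least 1.92-fold, is dim and was under the floor in wild-type heart. Gatm, the first enzyme of creatine synthesis, had 308 and 203 in heart, 1.52-fold lower, and 6334 and 4805 in TA. Gamt, which completes that synthesis, had 211 and 184 in heart and 4193 and 3178 in TA. Both enzymes of creatine synthesis were on the TA side in wild type, 20.6-fold for Gatm and 19.9-fold for Gamt. Epm2a was chosen for naming after its value was seen.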

How the data were processed

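Labelled RNA of 4 tissue pools was hybridised to Affymetrix mouse arrays. The deposited value of a probe set was a linear signal intensity that the authors computed; the submitters' processing notes name MAS5. Its version, scaling and detection calls were not given in the sources used here. Means trimmed by 2% at both ends ran from 496.35 to 496.83, and 49.5% to 50.7% of 45037 probe sets reached the floor on each array. Precision is limited by the number of arrays.

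Gene names came from the platform annotation, which can be old: 34945 probe sets carried 1 symbol, 932 several and 9160 none, and only the first kind was used. Of the members, 34 matched RefSeq by gene ID. Ratios were computed in Python 3.11.15 with numpy 2.4.6 and pandas 2.3.3, and the computation was tested on simulated data. Ratios were not recentred, because the medians in the knockout comparisons were below the limit of 0.1.

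The members and lists were chosen with earlier results of these data known. All members are accounted for. Of the pathway list, genes past 1.5-fold in a knockout comparison or past 4-fold between wild-type tissues could be named, 10 at most. Epm2a came on top of these, and Ckb was named only as the partner of Ckm in an isoform pair. Alternatives were centred ratios, quantile normalization, floors at the 25th and 75th percentile or none, and other rules for several probe sets. The brightness level of 64 times the floor was chosen after seeing the data.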

Additional observations from a re-analysis of the deposited data

Results flagged for a closer look

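For 4 members the knockout pool lay above wild type in one tissue and below it in the other, at least 1.5-fold apart, on the probe set that stands for the gene. Whatever the signs, 11.5% of all measured genes and 6.52% of the bright ones were that far apart. The share of all genes that also had opposite signs was not counted, so the number does not set the members apart. The difference of the log2 ratios, TA minus heart, was 0.83 for Hk2, 0.65 for Pfkl, −1.55 for Pfkfb3 and −0.68 for Gys1. The difference was not tested, since each group has 1 array of pooled RNA. Hk2 and Gys1 kept at least 1.5-fold with a floor at the 75th percentile, while Pfkfb3 and Pfkl were not measured in TA there. With the median over probe sets Gys1 was at −0.54, under 1.5-fold, and Pgm1 at −0.64 in place of −0.26. The probe sets of Pfkl ran from −0.39 to 1.12 in heart, so its direction there is not settled.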

How the results depend on the processing

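With 1 array of pooled RNA per group there is no replicate error and nothing could be left out in turn. No paired analysis was possible because each group has 1 sample. The number of members 1.5-fold lower in TA was 2 with a floor at the 25th percentile or none, which add Aldoc, and 0 with one at the 75th percentile, where Pfkfb3 is under the floor, against 1 as reported. In heart the number higher was 1 with the lower floor and 2 without a floor, and the number lower was 1 in both, against 0, all from genes whose heart signals are under the floor of 101.3. Members at least 1.5-fold apart between the tissues numbered 7, 2 and 7 with the lower, the higher and no floor, against 4. The difference between tissues of Tigar turned from 0.62 to −0.0155 with the higher floor, which lies above its wild-type TA signal. The other 77 values of counts and medians over the members stayed close to those reported, as did 1586 of those for single genes and lists. Close meant within 1.5 times for counts and within 0.1 for medians. For single genes and pairs of isoforms it meant a shift under 1.5-fold on the same side of the size counted. By this measure 44 values for single genes and lists moved. Some of them stayed on the same side, such as Ampd1 between wild-type tissues. Every member measured kept its side in wild-type TA against heart under all alternatives. Dim genes, Pfkfb3, Pfkl and Slc16a3 above all, are limited by their signal over background.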

Other observations

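The TA-to-heart ratio depended on the probe set for bright and dim members. The bright probe set of Ckm gave a log2 ratio of 0.83 in wild type, while its second, with signals of 1586 in wild-type TA and 275 in wild-type heart, gave 2.53, or 5.78-fold. The 3 probe sets of Pgk1 ran from 0.58 to 1.91, and the 5 of Aldoa from 0.58 to 1.01. The range was 1.98 for the dim Pfkl and 1.68 for Hk1, and 0.22, 0.26 and 0.33 for the bright Ldhb, Ugp2 and Tpi1. Over the 17 members with several usable probe sets, the median range of this ratio was 0.49 and the widest 1.98, and 1 member had probe sets on both sides of 0. In the knockout comparisons the median range was 0.12 in TA and 0.23 in heart, each over 15 members, and probe sets on both sides of 0 were found for 3 members in TA and 11 in heart.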
